A study of Coryphaena hippurus with 32 samples.

Results

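The data described here compare mahi-mahi (Coryphaena hippurus, a fast-growing open-ocean fish) raised to 96 h after fertilisation (hpf) in seawater with source oil from the Deepwater Horizon spill against controls of the same stage raised in seawater alone. The comparison uses 8 of the 32 samples of the series, chosen by their labels: 3 samples exposed to source oil, which the labels call "Mass" (the oil other than slick in their treatment text) and list at 1 g/l, and 5 control samples listed at 0 g/l. The study also exposed animals to slick oil (3 samples at 96 hpf, listed at 1 g/l) and sampled both oils and controls at 24 and 48 hpf. Source oil is oil taken at the well, whereas slick oil is weathered oil collected at the sea surface, and each was given as a high-energy water-accommodated fraction, that is, oil dispersed in seawater by vigorous mixing.

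Freshly fertilised eggs from captive, naturally spawning broodstock were placed in replicate beakers at 27°C and the water was not renewed. Each library was made from total RNA of 30 pooled whole animals. The tissue label reads whole embryo at every stage, although mahi-mahi are hatched, swimming larvae by 96 hpf. Nothing in the labels says that the beakers of a group came from separate spawns, so the p-values measure only the spread between these samples. Because whole animals were homogenised, fewer cells of a type and less RNA per cell cannot be told apart for any gene below.

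The 8 samples held between 6240578 and 7180464 counts over all lines of the deposited table, and between 1885602 and 2163847 after 1 line was kept per gene, with 10413 to 10468 genes detected in each. Control samples 10 and 11, and likewise 12 and 13, differed by less than sampling noise and were each summed and counted as 1 sample. The comparison therefore rests on 3 control libraries (10 with 11, 12 with 13, and 14) and 3 source libraries (16, 17 and 18), and values are given in that order. Levels are normalised counts, that is, counts divided by the library's scaled size and multiplied by the mean scaled size of 2486753. Genes carry the human symbols that the authors assigned, so a value can mix fish gene copies that share a human counterpart, and reads of a gene and its antisense partner cannot be told apart, since no source used here gives the strand setting.

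Crude oil carries polycyclic aromatic hydrocarbons. Several of these bind the aryl hydrocarbon receptor (AhR), which then pairs with ARNT in the nucleus and switches on detoxifying enzymes such as cytochrome P450 1A. In fish embryos and larvae, oil is known above all for injury to the heart, the eye and the craniofacial skeleton.

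Source oil changed few genes at this stage, and most of them by little. Of 8511 genes tested, 94 (1.10%) passed an adjusted p of 0.05 (edgeR quasi-likelihood test with Benjamini-Hochberg adjustment over all genes, the test behind every adjusted p below unless another is named). Of these, 44 (0.517%) were higher and 50 (0.587%) were lower in source oil than in control. The median log2 change of all genes was 0.00, and 74 of the 94 called genes changed by less than 0.5 on the log2 scale. An unadjusted p below 0.05, a count given for some lists below, was reached by 792 of the 8511 genes. The source and control libraries did not overlap for 1185 genes (13.9%; 6.47% with source higher and 7.45% with source lower) and for 91 of the 94. Called changes ran from a log2 change of -1.07 to one of 3.51, and 7 genes changed at least 2-fold. The count rests in part on single libraries: without control library 10 it was 50, without control library 12 it was 62, and without source library 17 it was 46. DESeq2 called 49 genes, and 11 genes were called when all lines of a gene were summed.

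**Figure D1:**
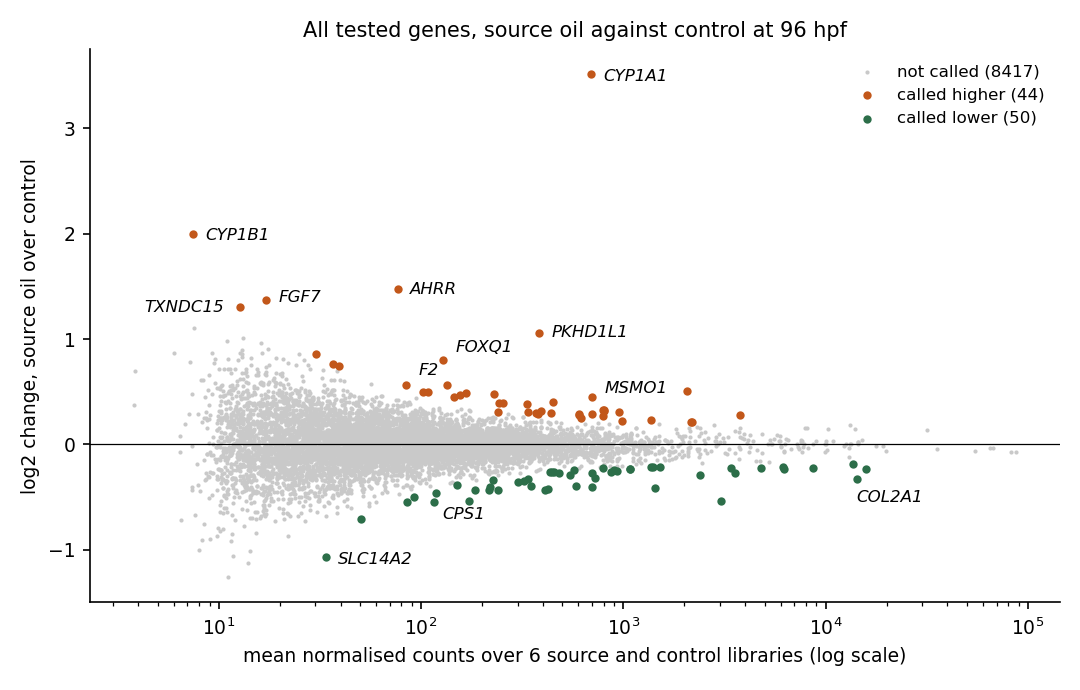
Each point is 1 of the 8511 genes tested, with its mean level over the 6 source and control libraries on a log axis and its log2 change in source oil on the vertical axis. Orange points are the 44 genes called higher and green points the 50 called lower, and CYP1A1 stands apart at a log2 change of 3.51.

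The 3 largest rises were those of the AhR targets CYP1A1, CYP1B1 and AHRR. CYP1A1, the hydrocarbon-oxidising enzyme that serves as the standard marker of exposure, was at 129, 94.7 and 109 normalised counts in the control libraries and at 1216, 1399 and 1199 in the source libraries. The groups did not overlap, and the rise was 11.4-fold (log2 change 3.51, SE 0.08, adjusted p 3.7e-78). AHRR, a repressor of the receptor that is itself induced by it, was at 37.8, 43.1 and 41.1 in control and at 108, 117 and 113 in source oil. It rose 2.76-fold (log2 change 1.47, SE 0.14, adjusted p 5.6e-15). FOXQ1, a forkhead transcription factor that responds to AhR ligands in zebrafish, was at 96, 78.5 and 111 in control and at 192, 137 and 155 in source oil. It rose 1.74-fold (log2 change 0.80, SE 0.12, adjusted p 2.1e-07). CYP1A1, AHRR and FOXQ1 were called whichever 1 of the 6 libraries was omitted.

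CYP1B1, a related hydrocarbon-oxidising enzyme, was scarce, at 4.95, 1.2 and 2.42 in control and at 6.49, 22.6 and 6.89 in source oil. The groups did not overlap, but source library 17 stood well above the other two, and the 4.01-fold rise (SE 0.48 on the log2 scale, adjusted p 0.0087) was not called without it (adjusted p up to 0.67 in the fits that left out source library 17 or control library 12). In all, 4 of the 9 measured members of the AhR list were higher and none was lower, with a list median of 0.12. The other members, among them the receptor itself, did not pass the test. AHR was at 26.6, 34.8 and 32.7 in control and at 38.9, 38.1 and 25.3 in source oil (log2 change 0.12, SE 0.22). ARNT (-0.21, SE 0.18) and ARNT2 (-0.12, SE 0.11), partners of the receptor, did not pass, nor did the quinone reductase NQO1 (-0.27, SE 0.30). None of 19 other measured P450 and conjugating enzymes was called by edgeR or DESeq2, with a list median of 0.18. An unadjusted p below 0.05 was reached by 2 of them. The log2 change was positive for 15 of the 19, against 4218 of all 8511 genes tested. Source and control did not overlap for 6 with source higher and 1 with source lower, where 6.47% and 7.45% of all genes were so.

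The CYP1A1 rise was also present at the earlier stages. Source oil raised CYP1A1 by a log2 change of 2.95 at 24 hpf (from 85.3 ± 17.4 to 661 ± 40.7 normalised counts, SD, n = 3 libraries per group) and by 3.37 at 48 hpf (from 147 ± 11.5 to 1517 ± 59.1). The test of the difference between 96 and 48 hpf gave 0.13 (adjusted p 0.77). Slick oil lay above source oil at 96 hpf for all 4 called AhR genes: CYP1A1 was at 3596, 4086 and 4314 in the slick libraries, and the log2 difference from source oil was 1.65 for CYP1A1, 1.81 for CYP1B1, 1.51 for AHRR and 0.94 for FOXQ1, with the highest adjusted p at 4.7e-07. Both oils carry the same label of 1 g/l, which does not give the dissolved hydrocarbons.

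**Figure D2:**
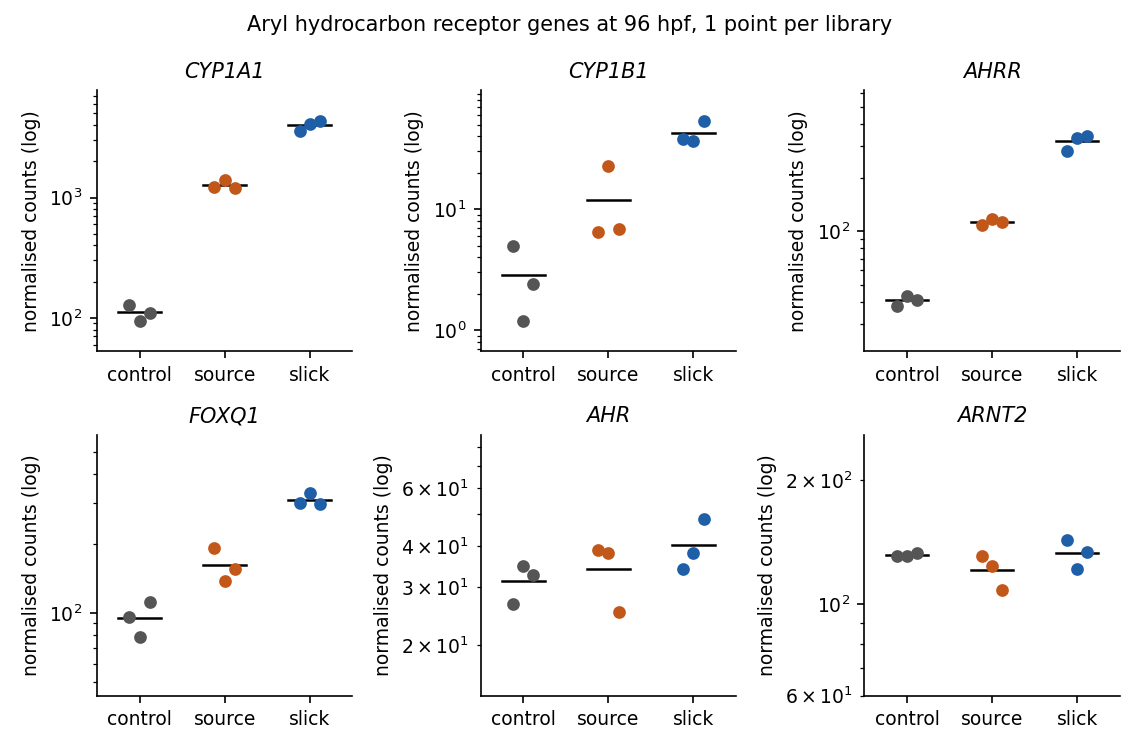
Normalised counts on log axes for 4 called AhR genes and for AHR and ARNT2 in the 3 control, 3 source and 3 slick libraries at 96 hpf, with a bar at each group mean. CYP1A1, AHRR and FOXQ1 form 3 separate levels with slick highest, whereas the source and control points of AHR and ARNT2 overlap.

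Other genes with large rises fell in no common list. PKHD1L1, which encodes a large membrane protein known from hair cells and lymphocytes, was at 225, 277 and 237 in control and at 546, 553 and 453 in source oil. The groups did not overlap, and the rise was 2.08-fold (log2 change 1.06, SE 0.08, adjusted p 3.9e-23). FGF7, a growth factor that connective tissue sends to epithelia, was at 9.91, 6.59 and 13.3 in control and at 24.7, 22.6 and 25.3 in source oil (log2 change 1.37, SE 0.30, adjusted p 0.0025, and 0.078 without control library 12). Slick oil lay further up for both, with a log2 difference from source oil of 0.82 for PKHD1L1 and 2.22 for FGF7. The chemokine CXCL14 rose from 77.4, 95.9 and 96.8 to 130, 134 and 114 (log2 change 0.50, adjusted p 0.011), though it lost its call in 3 of the 6 fits that left out 1 library. EGR1, an immediate-early transcription factor, rose from 137, 134 and 149 to 162, 177 and 239 (log2 change 0.49, adjusted p 0.0015), with source library 18 the highest; without that library the adjusted p was 0.32. TXNDC15 (1.30), SLC51A (0.86), GPR37 (0.76) and FMN2 (0.74), named here after their values were seen, were also called higher from means of 7.28 to 30 normalised counts in control, and each lost its call in at least 3 of those 6 fits.

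Among the genes of nitrogen handling, a urea transporter and a urea cycle enzyme were lower. Fish larvae shed most of their nitrogen as ammonia through Rh channels, and many can also make urea. SLC14A2, a urea transporter, was at 37.8, 41.3 and 60.5 in control and at 23.4, 19 and 20.7 in source oil. The groups did not overlap, and this was the largest fall among the 94 called genes (log2 change -1.07, SE 0.23, adjusted p 0.002). In the slick libraries SLC14A2 was all but gone, at 0, 1.27 and 1.21 normalised counts, and it was lower there than in source oil (adjusted p 1.5e-09). CPS1, the carbamoyl phosphate synthetase that feeds the urea cycle, was at 146, 146 and 119 in control and at 89.6, 92.8 and 102 in source oil (log2 change -0.55, SE 0.12, adjusted p 0.002). It was lower again in slick oil, at 66.9, 50.7 and 58. Both calls held in all 6 fits that left out 1 library, but not with lines summed (adjusted p 0.09 for SLC14A2 and 0.14 for CPS1). Each of these 2 genes has only 1 line, so summing left their own counts unchanged. The variation between libraries over all genes was 7.11% in that fit rather than 4.14%.

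CPS1 was the only 1 of 10 tested urea cycle genes that passed the test, and the list median was -0.04. OTC, the next enzyme of the cycle, was at 52.6, 46.7 and 52 in control and at 41.5, 35.7 and 35.6 in source oil (log2 change -0.42, adjusted p 0.44). Of 26 tested ionocyte, ammonia and acid-base genes, 1 was higher and 2, SLC14A2 among them, were lower, with a median of 0.03. RHAG, an ammonia channel of red blood cells, rose from 691, 675 and 796 to 849, 842 and 888 (log2 change 0.27, adjusted p 0.0043). SLC12A2, a sodium, potassium and chloride cotransporter of ionocytes, fell from 843, 827 and 896 to 750, 722 and 720 (log2 change -0.22, adjusted p 0.035). RHAG lost its call in 3 of the 6 fits that left out 1 library and SLC12A2 in all 6. The proton pump subunit ATP6V1A (log2 change -0.01, SE 0.06) and the chloride channel CFTR (-0.02, SE 0.23) did not pass.

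SLC14A2 differed from control at each stage. It was higher in source oil at 24 hpf (log2 change 1.63, adjusted p 0.00081), lower at 48 hpf (-1.76, adjusted p 1.6e-05) and lower at 96 hpf. The fall at 96 hpf was not shown to differ from that at 48 hpf (difference 0.67, adjusted p 0.53). CPS1 did differ between these stages, by a log2 of -0.84 (SE 0.18, adjusted p 0.0038, 0.062 without source library 13 of 48 hpf and 0.11 with lines summed). RHCG, the main ammonia channel of the gill and skin in fish, was raised by source oil at 48 hpf (log2 change 0.78, adjusted p 0.023) but was at 550, 598 and 618 in control and at 531, 553 and 500 in source oil at 96 hpf, and its effects at the 2 stages differed (difference -0.95, SE 0.21, adjusted p 0.0059, up to 0.16 without control library 6 or source library 15 of 48 hpf and 0.055 with lines summed). At 96 hpf RHCG did not pass (log2 change -0.15, adjusted p 0.44). On its line nearest to the deposited mean it was called lower (-0.24, adjusted p 0.049). RHCG and its relative RHBG, the latter named after its values were seen, had been scarce at 48 hpf, with control ranges of 23.4 to 29.6 and 65.9 to 77.6 normalised counts on a scale shared by the stages, against 509 to 573 and 614 to 714 at 96 hpf. RHBG too was raised at 48 hpf (0.67, adjusted p 0.00046) but did not pass at 96 hpf (0.12, adjusted p 0.57). Its effects differed by -0.57 (adjusted p 0.0097, up to 0.12 without control library 6 or source library 13 of 48 hpf, and 0.07 with lines summed).

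Several cartilage genes were lower. Of 24 tested members, 9 were lower and 1 was higher in source oil, and the list median was -0.25 against 0.00 for all genes. COL2A1, the chief collagen of cartilage, was at 17332, 15415 and 14767 in control and at 12321, 13339 and 12138 in source oil. The groups did not overlap, and the log2 change was -0.33 (SE 0.05, adjusted p 6.9e-07). COL11A2, which with COL11A1 forms the collagen that nucleates cartilage fibrils, was at 4410, 3812 and 3467 in control and at 3101, 3424 and 3191 in source oil (log2 change -0.27, SE 0.06, adjusted p 0.00097). MATN3 and MATN4, matrilins that bridge the collagen network, had log2 changes of -0.54 (SE 0.11, adjusted p 0.0015) and -0.36 (SE 0.08, adjusted p 0.0027).

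The other called cartilage genes, named after their values were seen, were COL11A1 (-0.23), the fibril-surface collagens COL9A2 (-0.32) and COL9A3 (-0.25), the link protein HAPLN1 (-0.33) and chondromodulin, listed as LECT1 (-0.26). SOX9, the master regulator of cartilage cells, was at a log2 change of -0.31 (SE 0.10, adjusted p 0.17), and the proteoglycan ACAN was at -0.12 (SE 0.13). CRTAC1, a secreted acidic protein of cartilage and other tissues, went the other way, from 128, 131 and 131 in control to 186, 162 and 193 in source oil (log2 change 0.47, SE 0.10, adjusted p 0.002).

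The cartilage calls depended on the libraries used. Of the cartilage genes, 10 were called in all; without control library 10 the number was 3 and the median was -0.14. That library had the highest control level of 8 of the 9 lower genes. Without source library 16, 6 were called, and likewise without source library 17. COL2A1 was called whichever library was omitted, and also by DESeq2 (adjusted p 2.7e-05) and with lines summed (adjusted p 0.019). DESeq2 called 1 higher and 3 lower, and with lines summed 1 was called. The line kept for MATN3 and for COL9A3 was far from the authors' deposited mean for the gene, with 147 against 3.48 and 783 against 0.38 counts.

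At 48 hpf most of the cartilage genes called at that stage were higher, but not all were the genes called lower at 96 hpf. COL11A2, COL9A2, COL9A3 and LECT1 were called higher at 48 hpf and lower at 96 hpf, and CRTAC1 was higher at both. COL9A1 and EPYC, named after their values were seen, were called higher at 48 hpf but did not pass at 96 hpf (adjusted p 0.31 and 0.12). At 48 hpf COL2A1 (0.01, adjusted p 0.95) and COL11A1 (0.08, adjusted p 0.49) did not pass. There, 7 of 21 tested members were higher and 1 was lower in source oil, with a median log2 change of 0.21 (1.32% of all genes were called at that stage, 0.658% higher and 0.658% lower). COL9A3 was at 691 to 747 normalised counts in the 48 hpf control libraries and at 882 to 1031 in source oil, then at 866 to 1039 in control and at 765 to 822 in source oil at 96 hpf. The effects of the 2 stages differed by a log2 of -0.67 (SE 0.10, adjusted p 8.4e-06). COL11A2 went from 3554 to 3764 in control and 4056 to 4460 in source oil at 48 hpf to 3212 to 4082 and 2856 to 3144 at 96 hpf (difference -0.52, SE 0.08, adjusted p 2.4e-05). In the test of the difference itself, 10 of 24 cartilage genes were called, all 10 more negative at 96 hpf, and the median difference was -0.33. Over all genes the same test called 58 of 8898 (0.652%), of which 23 (0.258%) were more positive and 35 (0.393%) more negative at 96 hpf; that split was 27 and 27 with RLE scaling and 41 and 16 with DESeq2. The cartilage count was 8 to 10 in the 12 fits that left out 1 library of either stage, 10 with RLE scaling and 4 with lines summed, and DESeq2 called 7 more negative and 1 more positive. At 48 hpf alone the 7 higher calls dropped to 3 without source library 13 and to 4 without control library 4, control library 6 or source library 15; DESeq2 called 4 higher there and 3 were higher with lines summed.

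**Figure D3:**
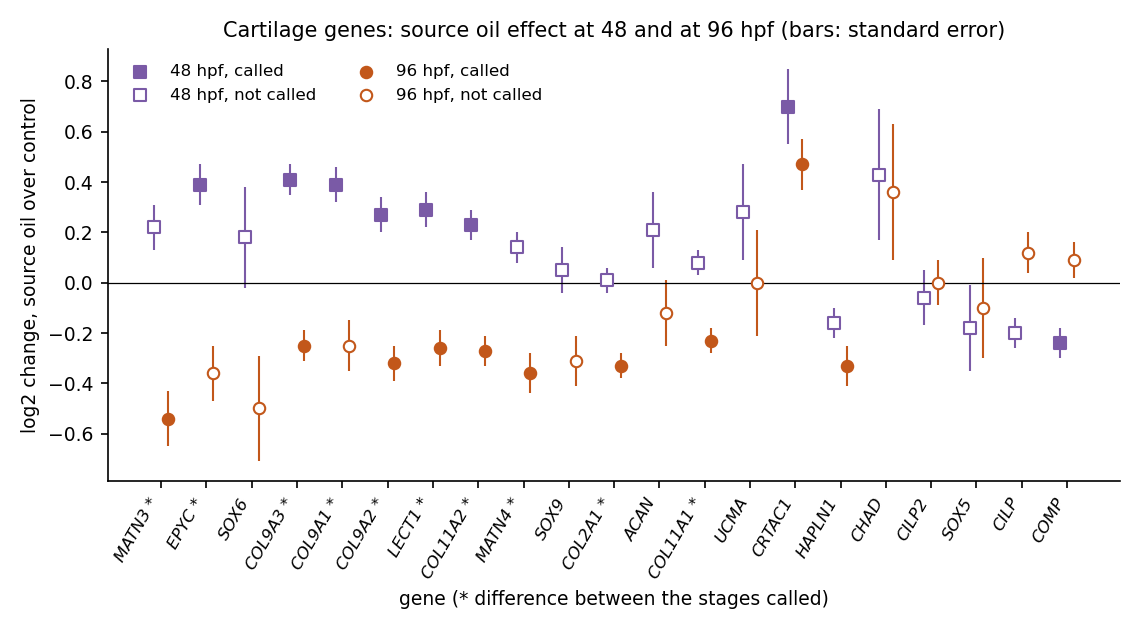
Log2 change in source oil at 48 hpf (purple squares) and 96 hpf (orange circles) for the 21 cartilage genes tested at both stages, ordered by the difference, with bars of 1 standard error and filled symbols for called changes. For the 10 genes marked by an asterisk the difference between stages was called, and their 48 hpf values lie above 0 while their 96 hpf values lie between -0.23 and -0.54.

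Fewer fibrillar collagens of bone, skin and tendon were called. Of 28 tested genes for these collagens and their processing, 3 were lower and none higher, and the median was -0.14. The log2 change was negative for 27 of the 28, against 4293 of all 8511 genes tested. COL1A1, the main collagen of bone and dermis, was at 17615, 17524 and 16216 in control and at 14565, 15089 and 13999 in source oil (log2 change -0.23, SE 0.05, adjusted p 0.0015). COL1A2 (-0.22, adjusted p 0.0043) and COL5A2 (-0.22, adjusted p 0.0037) were the others, and the number called was 1 without control library 10 and none with lines summed. The enzymes that fold and crosslink collagen did not pass: the lysyl hydroxylase PLOD2 (-0.13, SE 0.07), the crosslinker LOX (-0.17, SE 0.09) and the prolyl hydroxylase subunit P4HB (0.03, SE 0.06). COL1A1 was already lower at 48 hpf (-0.22, adjusted p 0.0069). None of 9 tested bone and mineralization genes was called by edgeR or DESeq2, with a median of 0.08 and 1 unadjusted p below 0.05.

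Other called genes included LTBP4 and 5 more that encode matrix proteins, in no list tested. LTBP4, which stores TGF-beta in elastic fibres, fell from 126, 102 and 94.4 to 77.9, 85.6 and 68.9 (log2 change -0.50, adjusted p 0.023). NID2, a basement membrane linker, fell from 2656, 2642 and 2586 to 1987, 2335 and 2123 (-0.29, adjusted p 0.00012) and kept its call in all 6 fits that left out 1 library. The laminin chain LAMB2 (-0.26), the fibrillins FBN1 (-0.24) and FBN3 (-0.22) and ABI3BP (-0.26) were also called. NID2, LAMB2, FBN1, FBN3 and ABI3BP were named after their values were seen. LTBP4, FBN1, FBN3 and ABI3BP each lost their call in at least 3 of those 6 fits.

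In the eye, 2 genes of the cells that support photoreceptors and 2 genes of cones were lower. RLBP1, which carries retinal in the pigment epithelium and Müller glia, was at 517, 454 and 491 in control and at 373, 369 and 351 in source oil. The groups did not overlap, and the log2 change was -0.42 (SE 0.07, adjusted p 6.7e-05), called in all 6 fits that left out 1 library. RGR, a light-sensing opsin of the same cells, was at 1691, 1579 and 1650 in control and at 1067, 1211 and 1427 in source oil (log2 change -0.41, SE 0.07, adjusted p 5.2e-06). DESeq2 did not call RGR (adjusted p 0.63), and of 5 lines under this symbol 3 were called lower while the others reached a log2 change of up to 0.10. RPE65, the isomerase of the visual cycle, was at 103, 104 and 99.2 in control and at 58.4, 86.8 and 97.6 in source oil, with library 16 lowest (log2 change -0.32, adjusted p 0.37).

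RLBP1 was called by DESeq2 (adjusted p 0.01) but not with lines summed (0.4). Of 13 tested visual cycle genes 2 were lower (median -0.10), and of 19 tested phototransduction genes 2 were lower (median -0.01). OPN1LW, a cone opsin, was at 6385, 6401 and 7015 in control and at 5596, 6260 and 5203 in source oil (log2 change -0.21, SE 0.05, adjusted p 0.014). GRK7, the kinase that quenches cone opsins, was at 445, 485 and 485 in control and at 410, 378 and 388 in source oil (log2 change -0.26, SE 0.07, adjusted p 0.03). Neither was called by DESeq2 (adjusted p 0.79 and 0.19), and no phototransduction gene was called without control library 14, source library 16 or source library 18. PRPH2, RGS9 and PDC had log2 changes within 0.01 of 0, but the phototransduction list ran from -0.55 to 0.17, with 12 members negative and 7 positive. Source and control did not overlap for 7 of the 19, all lower in source oil, where 7.45% of all genes were so. An unadjusted p below 0.05 was reached by 6 of the 19, against 792 of all 8511 genes. The summed level of the 7 measured photoreceptor markers was 9571 to 10466 in control and 8190 to 9365 in source oil. OPN1LW and GRK7 are among these markers and OPN1LW makes up most of the sum, so it is not separate from them.

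Slick oil at the same stage differed from source oil across the whole list: 18 of 19 phototransduction genes and 9 of 10 lens genes were lower in slick, with median log2 differences of -1.21 and -1.03, where 6.47% of all 8511 genes were lower in that test. None of the 10 lens genes was called between source oil and control by edgeR or DESeq2 (median -0.06), and none had an unadjusted p below 0.05. The log2 change was negative for 9 of the 10, against 4293 of all 8511 genes tested. Source libraries lay wholly below control for 4 of the 10, where 7.45% of all genes did. The summed level of the 4 measured lens markers was 3165 to 3396 in control and 2886 to 3089 in source oil. PMEL, a melanosome fibre protein of the pigment epithelium and melanophores, fell from 291, 261 and 275 in control to 201, 196 and 217 in source oil (log2 change -0.43, SE 0.09, adjusted p 0.0011), and was the only called member of 19 pigment genes tested. The melanin enzymes TYR (-0.37, adjusted p 0.095) and TYRP1 (-0.22, adjusted p 0.094) did not pass.

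Several liver genes were higher in source oil. Of 12 tested genes for secreted liver proteins, 3 were higher, none was lower, and all 12 had a positive log2 change, with a median of 0.23. Over all genes 0.517% were called higher, and 4218 of 8511 had a positive log2 change. FGB and FGG, chains of the clotting protein fibrinogen, were called: FGG was at 664, 691 and 762 in control and at 794, 966 and 884 in source oil (log2 change 0.33, SE 0.06, adjusted p 0.00028), and FGB had a log2 change of 0.32 (SE 0.07, adjusted p 0.0055). Neither was called without source library 17, where 1 of the 12 was called, and none was called with lines summed. FGB and FGG have only 1 line each, so summing left their own counts unchanged. The third chain, FGA, was at 0.42 (SE 0.14, adjusted p 0.18). Transferrin (TF), the iron carrier of plasma, shares its table lines with a second identifier that the files do not pair with a symbol. It was at 359, 376 and 432 in control and at 526, 425 and 573 in source oil, so that source library 17 lay within the control range (log2 change 0.40, SE 0.07, adjusted p 8.9e-05). F2, which encodes prothrombin, was at 112, 107 and 110 in control and at 156, 161 and 167 in source oil (log2 change 0.56, SE 0.11, adjusted p 0.00039) and kept its call in all 6 fits that left out 1 library. C8G, a subunit of the membrane attack complex of complement, had a log2 change of 0.22 (adjusted p 0.034) and lost its call in 5 of those fits. F2 was the called member of 10 tested clotting genes (median 0.21) and C8G that of 4 complement genes (median 0.25).

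Some enzymes of liver metabolism were higher as well. PCK1 and G6PC, the first committed and the last step of glucose synthesis, were called of 14 tested genes of that list (median 0.11). PCK1 was at 1937, 2043 and 2032 in control and at 2338, 2305 and 2297 in source oil (log2 change 0.21, SE 0.05, adjusted p 0.014), and G6PC rose from 410, 386 and 379 to 505, 498 and 454 (log2 change 0.30, SE 0.07, adjusted p 0.0043). Neither was called without control library 12, source library 16 or source library 17, nor with lines summed. PCK1 has only 1 line, so summing left its own counts unchanged. AGXT, which detoxifies glyoxylate, rose from 691, 706 and 747 to 878, 922 and 859 (log2 change 0.32, adjusted p 0.00036), and HPD, an enzyme of tyrosine breakdown, rose from 74.9, 61.7 and 67.8 to 92.2, 109 and 99.9 (log2 change 0.56, adjusted p 0.0087). HPD was not called without control library 12 or source library 17 (adjusted p up to 0.15), and with lines summed neither HPD (0.16) nor AGXT (0.066) was called. HPD has only 1 line, so summing left its own counts unchanged. AGXT and HPD were the called members of 17 tested genes of amino acid breakdown, whose median was 0.22.

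Some of these genes had been lower at 48 hpf. At that stage 4 of 14 secreted liver proteins and 3 of 14 glucose synthesis genes were called lower and none higher in source oil (medians -0.19 and -0.10). Over all genes 0.658% were called lower at 48 hpf. None of either list was called without source library 15 of that stage. G6PC was at 275 to 320 in control and 197 to 246 in source oil at 48 hpf, and its effects differed between the stages by 0.71 (SE 0.11, adjusted p 8.4e-06). TF (0.63, adjusted p 8.4e-06), F2 (0.84, adjusted p 0.00018), C8G (0.49, adjusted p 0.00053) and PCK1 (0.46, adjusted p 0.00072) differed in the same direction, and these 5 calls held in all 12 fits that left out 1 library. With lines summed, G6PC, TF and F2 were still called (adjusted p 0.034 for each), and PCK1 and C8G were not (0.055 and 0.12). TF itself was far scarcer at the later stage, with control ranges of 3570 to 3990 normalised counts at 48 hpf and 332 to 400 at 96 hpf. The summed level of the 7 measured liver markers was 3947 to 4364 in the 96 hpf control libraries and 4669 to 4869 in source oil. The called genes TF, FGB and FGG are among these markers, so the sum is not separate from them. How far the sum accounts for single genes was not tested.

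**Figure D4:**
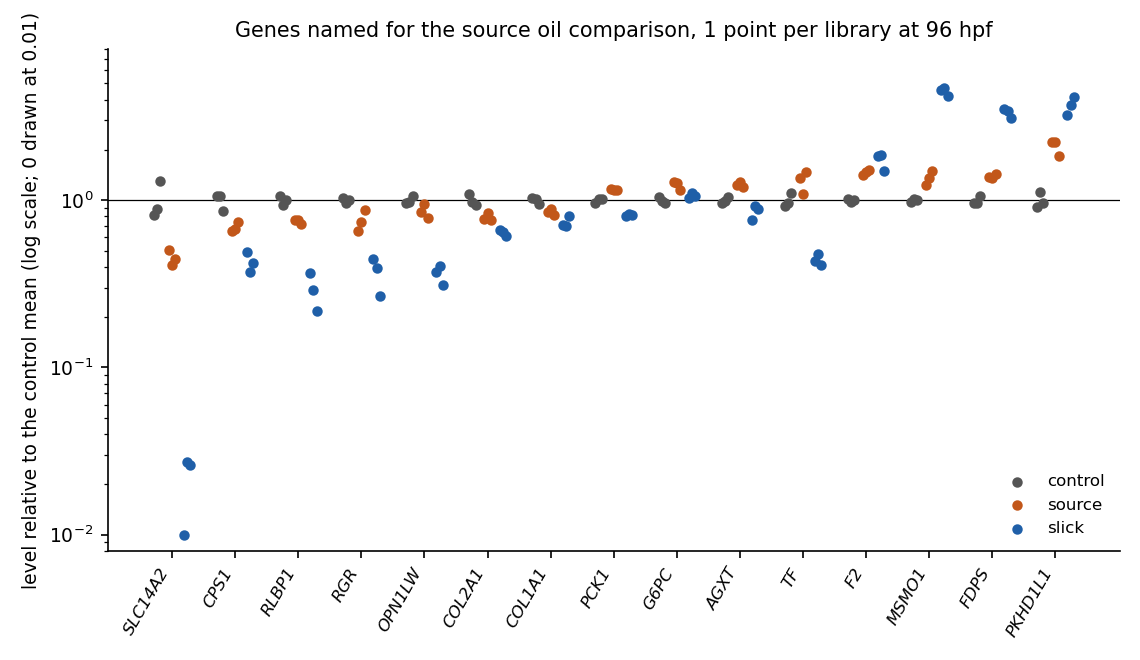
Levels in each library at 96 hpf relative to the control mean, on a log axis, for 15 genes of the urea, eye, matrix, liver and sterol groups, with PKHD1L1 at the right. Source points lie to 1 side of the control points for 14 of the 15 genes, the exception being TF, and 1 slick library of SLC14A2 with no count is drawn at 0.01.

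Of the 9 tested digestive enzymes of the pancreas, 2 were called higher, where 0.517% of all genes were and 4218 of 8511 had a positive log2 change. All 9 tested members had a positive log2 change between 0.13 and 0.33, and 2 were called: CELA1, an elastase (751, 645 and 748 in control, 1020, 905 and 762 in source oil, log2 change 0.33, adjusted p 0.00051) and CPB1, a carboxypeptidase (log2 change 0.21, adjusted p 0.023). The number called was 8 without control library 14, 6 without source library 18 and none without control library 12 or with lines summed. The trypsin gene PRSS1 was at 12645, 11835 and 12837 in control and at 14343, 14611 and 13203 in source oil (log2 change 0.18, adjusted p 0.053). Summed pancreas markers, CELA1 and CPB1 among them, ran from 37707 to 42535 in control and from 41138 to 46729 in source oil, so the groups overlapped.

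Cholesterol synthesis was touched at 2 of 19 measured steps, where 0.517% of all genes were called higher. MSMO1, a sterol demethylase, was at 581, 605 and 595 in control and at 735, 808 and 894 in source oil (log2 change 0.45, SE 0.06, adjusted p 9.7e-08), a call that held in every alternative fit run, DESeq2 (8e-07) and summed lines (0.017) included. FDPS, which makes farnesyl diphosphate, rose from 82.4, 82.1 and 90.8 to 118, 115 and 123 (log2 change 0.50, SE 0.12, adjusted p 0.0093), and lost its call in 3 of the 6 fits that left out 1 library. The list median was 0.14. Against source oil, slick oil had higher levels of all 19 measured members, with a median log2 difference of 1.52, where 6.99% of all genes were higher in that test; MSMO1 reached 2697, 2796 and 2495 there.

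Genes of the antioxidant list moved in both directions. Of 22 tested, 3 were higher and 1 lower, with a median of 0.02. The 3 were peroxiredoxins, enzymes that reduce peroxides: PRDX1 rose from 805, 859 and 904 to 1076, 1094 and 990 (log2 change 0.31, adjusted p 0.00039), PRDX2 had a log2 change of 0.29 (adjusted p 0.0022) and PRDX4 one of 0.23 (adjusted p 0.0063). PRDX3, PRDX5 and PRDX6 were at -0.03, -0.13 and -0.05 and did not pass. CHAC1, which degrades glutathione and is a target of the ATF4 stress response, fell from 313, 208 and 217 to 175, 177 and 203 (log2 change -0.43, adjusted p 0.0043, and 0.73 without control library 10, the highest of the 3). GCLC, the rate-limiting enzyme of glutathione synthesis, was at 0.01 (SE 0.07), SOD1 at 0.23 (adjusted p 0.26) and the NRF2 target SQSTM1 at 0.32 (adjusted p 0.09). The number called was 1 without source library 17, 2 without control library 12, 2 without source library 16 and none with lines summed.

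**Figure D5:**
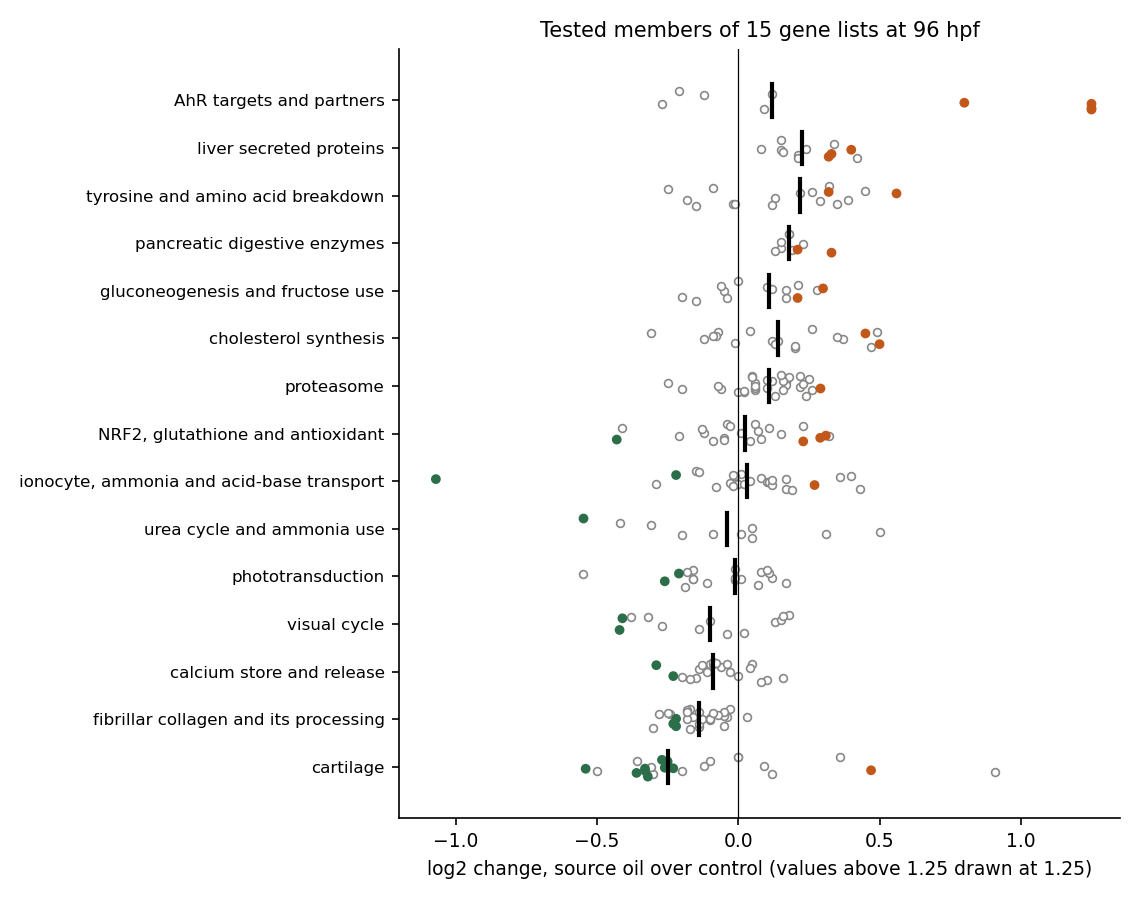
Log2 change in source oil of every tested member of 15 gene lists at 96 hpf, with called genes in orange (higher) or green (lower), other genes as open circles and the list median as a black bar. The AhR genes CYP1A1, CYP1B1 and AHRR lie beyond the axis and are drawn at its end. All members of the liver and pancreas lists lie to the right of 0. The cartilage and collagen medians lie to the left, as do 18 of 24 cartilage and 27 of 28 collagen members.

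Among genes with a symbol, those of muscle gave few calls. Among 21 tested genes of calcium storage and release, ATP2A3, a calcium pump, fell from 600, 608 and 580 to 489, 475 and 502 (log2 change -0.29, adjusted p 0.0039), and JPH1, which couples the muscle surface to the calcium store, fell from 1197, 1160 and 1134 to 927, 1021 and 1038 (-0.23, adjusted p 0.016). CACNA1S, the voltage sensor of skeletal muscle, was at 375, 364 and 339 in control and at 282, 295 and 278 in source oil (log2 change -0.35, adjusted p 0.0033). ATP2A2, the pump of the heart (-0.15, SE 0.06), and the release channels RYR2 (-0.14, SE 0.09) and RYR3 (-0.13, SE 0.06) did not pass. None of 12 tested heart sarcomere genes, 13 skeletal sarcomere genes and 20 regulators of heart development was called by edgeR or DESeq2. Their medians were -0.07, -0.06 and 0.00. In each of these lists 3 genes had an unadjusted p below 0.05, where 792 of all 8511 genes did. The lists hold only genes with a symbol. They do not cover the called features with no symbol, given below, so an untouched sarcomere cannot be concluded. FBXO32, a ubiquitin ligase that drives muscle wasting, fell from 691, 713 and 569 to 517, 516 and 489 (log2 change -0.39, SE 0.07, adjusted p 1.8e-05), and SLC6A8, the creatine transporter, fell by 0.24 on the log2 scale (adjusted p 0.031), a call lost in 4 of the 6 fits that left out 1 library (adjusted p up to 0.26), by DESeq2 (0.18) and with lines summed (0.3). CACNA1S was the called member of 23 tested voltage-gated channels (median -0.02) and SLC6A8 that of 17 muscle energy genes (median -0.03). Calcium store calls were none without control library 12 and none without source library 17, and CACNA1S was not called without control library 10 (adjusted p 0.085).

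Further genes fell with their groups apart. PPL, a plakin that links keratin to the edge of skin cells, went from 449, 468 and 494 in control to 382, 354 and 308 in source oil (log2 change -0.43, SE 0.07, adjusted p 1.8e-05). IRS1, the docking protein of the insulin and IGF receptors, went from 207, 221 and 201 to 179, 151 and 144 (-0.43, adjusted p 0.0041). DUS1L (-0.55), WDR3 (-0.40), FXR2 (-0.46) and KLF11 (-0.38), which act in tRNA modification, ribosome assembly, RNA binding and transcription, were called as well, as was MAT2A (-0.23), which makes the methyl donor S-adenosylmethionine. PPL was the called member of 9 skin genes (median -0.06), IRS1 that of 10 growth hormone and IGF genes (median -0.06) and MAT2A that of 18 genes of creatine, betaine and folate (median -0.05). KLF11 lost its call whichever library was omitted, and IRS1, DUS1L, WDR3, FXR2 and MAT2A each in at least 3. Of 18 tested cytosolic tRNA synthetases, 3 (LARS, IARS and EPRS) were lower (log2 changes from -0.27 to -0.21; list median -0.12), a list chosen after the values were seen.

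Further genes rose. CAPN5, a calpain protease, went from 178, 188 and 219 in control to 265, 271 and 261 in source oil (log2 change 0.48, SE 0.09, adjusted p 0.00014). NOX1, which makes superoxide, went from 199, 197 and 247 to 264, 277 and 280 (log2 change 0.39, adjusted p 0.0033). NOX1 was not called without control library 10 or 12 (adjusted p up to 0.095) or by DESeq2 (0.059), and CAPN5 was not called on the line nearest to the deposited mean (0.12). The proteasome subunit PSMB7 (0.29), the respiratory chain subunit NDUFA12 (0.31) and SDHAF2 (0.45), an assembly factor of succinate dehydrogenase, were called as well. Each of these 3 lost its call in at least 2 of the 6 fits that left out 1 library. PSMB7 was the called member of 30 proteasome genes tested (median 0.11), of which 25 had a positive log2 change and 11 an unadjusted p below 0.05. NDUFA12 was that of 38 respiratory chain genes (median 0.05), with 28 and 7. Source lay wholly above control for 9 proteasome and 4 respiratory chain genes, and wholly below for 1 of each. Over all 8511 genes, 4218 were positive, 792 had an unadjusted p below 0.05, and 6.47% and 7.45% lay wholly above and below. The peroxidase feature MPO/EPX, whose lines carry the identifiers of both human genes, went from 1514, 1727 and 1890 to 2421, 2792 and 2039 (log2 change 0.51, adjusted p 1.6e-09). DESeq2 did not call it (adjusted p 0.22), and 1 of its 3 tested lines was called lower, at -0.90, so its direction depends on the line read. Of the called features, 4 lower and 1 higher carry identifiers with no symbol in the files, so they are in no gene list. The called fall with the lowest adjusted p was 1 of the 4. It went from 3585, 3752 and 3446 in control to 2338, 2355 and 2734 in source oil (log2 change -0.54, SE 0.05, adjusted p 1.7e-14). The call held in all 6 fits that left out 1 library, by DESeq2 (2.5e-11) and with lines summed (0.0012). Its effects at 96 and 48 hpf differed by -0.72 (adjusted p 3.7e-05, 0.053 by DESeq2 and 0.15 with lines summed).

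Several other lists gave no calls by edgeR or DESeq2. These were 63 cytosolic ribosomal proteins (median 0.02), 37 mitochondrial ribosomal proteins (0.00), 33 genes of DNA replication and the cell cycle (-0.03) and 24 chaperones (0.00). Also without calls were 23 glycolytic enzymes (-0.01), 35 synaptic genes (-0.02) and 16 hypoxia genes (0.02). In this order, 10, 3, 0, 2, 2, 0 and 3 of their members had an unadjusted p below 0.05, against 792 of all 8511 genes.

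Across stages, 15 genes were called in source oil at both 96 and 48 hpf, which is 16% of the calls at 96 hpf and 14.2% of the 106 at 48 hpf. Of these, 7 moved the same way: CYP1A1, AHRR, FOXQ1, PKHD1L1 and CRTAC1 were higher at both stages, and SLC14A2 and COL1A1 were lower at both. The other 8 moved in opposite directions: COL11A2, COL9A2, COL9A3 and LECT1 were higher at 48 hpf and lower at 96 hpf, and PCK1, G6PC, C8G and TF were lower and then higher. The test of the difference between stages was called for each of the 8. It uses the same libraries as the opposite calls that selected these genes, so it adds no separate support. The overlap with 24 hpf, where 131 genes (1.69%; 0.993% higher and 0.696% lower) were called, was 10 genes, of which 5 moved the same way.

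At 96 hpf slick oil differed from source oil in 1146 genes (13.5%), of which 595 (6.99%) were higher and 551 (6.47%) lower in slick oil. Of the 44 genes higher in source oil than in control, 11 were higher and 12 lower in slick than in source oil. Among those 12, PCK1, AGXT, TF and MPO/EPX were also lower in slick oil than in control (log2 changes -0.29, -0.22, -1.16 and -0.21). Of the 50 genes lower in source oil, 3 were higher and 25 lower in slick than in source oil. Both tests use the source libraries, so these counts are not independent. Against the same 3 control libraries, slick oil gave 1808 calls (21.2%; 10.9% higher and 10.4% lower) where source oil gave 94. In the authors' deposited table for source oil at 96 hpf, 95 genes were called, 39 higher and 56 lower, among 1708 that carried an adjusted p. Of the 89 with an identifier, 55 were also called here, all 55 in the direction given in the authors' deposited table. Of the 94 genes called here, 33 carried no adjusted p in the authors' deposited table. The log2 change of CYP1A1 was 2.21 in the authors' deposited table and 3.51 here, although its mean level was 447 counts in both. The reason for the gap was not tested.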

How the data were processed

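TruSeq RNA-seq libraries of pooled whole mahi-mahi were compared from the deposited files. The authors deposited 1 table of raw read counts with 42538 lines keyed to human gene identifiers, with several lines for many genes, and tables of their own comparisons holding a mean of normalised counts (a signal of coverage), log2 fold changes and p-values, per the file headers. The submitters' processing notes name HTSeq, DESeq2 and hg19; which aligner was used is not stated there. All columns matched a sample (0 did not).

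From the deposited counts, each identifier was represented by its line of highest total; lines shared by several identifiers were joined. Lines without an identifier held at most 0.043% of a sample's counts. Of 46 sample pairs within groups, 5 differed by no more than sampling noise (chi-square per degree of freedom 0.968 to 1.03, against 1.18 to 3.03 for the others) and were summed, leaving 27 libraries. edgeR 4.0.16 in R 4.3.3 (TMM scaling, filterByExpr, quasi-likelihood F-test, two-sided, Benjamini-Hochberg over all genes, threshold 0.05) was fitted to all 9 libraries of a stage, with 6 residual degrees of freedom, or to all 27 for differences between stages; the slick libraries thus shared the estimate of spread. Biological variation at 96 hpf was 4.14%. Standard errors were taken from the F statistic. DESeq2 1.42.0, RLE scaling, other filters, other line choices and leaving out each library were alternatives. The script was tested on simulated data with known changes. Standard errors and p-values cover the spread between libraries only.

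Named genes were the measured AhR members, the 15 highest and 15 lowest called genes with a mean of at least 50 normalised counts and groups that do not overlap, up to 5 called members per list by p, and the best-known member of a list by its values; for other comparisons the 5 highest and 5 lowest. Called genes outside this rule are marked as named after their values were seen; uncalled genes given by their values beyond the best-known member of a list were also chosen after their values were seen. The members, the 53 gene lists and the tests were chosen with earlier results of these data known. Some measured genes are not reported here.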

Additional observations from a re-analysis of the deposited data

Results flagged for a closer look

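Every result below was singled out because the effect of source oil at 96 hpf differed from that at 48 hpf in a direct test of the difference (edgeR quasi-likelihood test over 27 libraries, adjusted over 8898 genes). Differences are log2 changes at 96 hpf minus those at 48 hpf, and their causes were not tested. Among called or named cartilage genes the differences were -0.36 for COL2A1, -0.32 for COL11A1, -0.52 for COL11A2, -0.61 for COL9A2, -0.67 for COL9A3, -0.57 for LECT1, -0.78 for MATN3 and -0.51 for MATN4. They were -0.33 for FBN1 and -0.31 for NID2, which encode other matrix proteins. FNDC3B, which encodes a membrane protein, had a difference of -0.85. FNDC3B was not called at either stage alone, and neither were FA2H, BCO1 and WNK3, given below.

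Genes of liver and energy metabolism differed the other way: 0.71 for G6PC, 0.46 for PCK1, 0.84 for F2, 0.49 for C8G and 0.63 for TF. Differences were also positive for PKHD1L1 (0.62), which was raised at both stages, for FA2H (0.64), a hydroxylase of membrane lipids, for BCO1 (0.88), which splits carotenes into retinal, and for NT5DC2 (0.41).

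In nitrogen, ion and methyl metabolism the differences were -0.84 for CPS1, -0.95 for RHCG, -0.79 for the kinase WNK3 and -0.40 for MAT2A. They were -0.57 for CHAC1, -1.18 for DUS1L, -0.59 for PMEL and -0.37 for NMRK2.

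ASTL, an astacin protease related to hatching enzymes, had a difference of 3.87. It was at 661 to 846 normalised counts in control and 413 to 514 in source oil at 48 hpf, and at 96 hpf at 0.556 to 4.48 in control and 1.2 to 35 in source oil, too low for the test at that stage alone. It was not called without 96 hpf source library 18 (adjusted p 0.75). Over the 12 fits that left out 1 library, FNDC3B and BCO1 kept their calls in 2, WNK3, NID2 and NT5DC2 in 3, FA2H and NMRK2 in 4, and CHAC1 and FBN1 in 6.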

How the results depend on the processing

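The number of genes called between source oil and control at 96 hpf (94) was 49 with DESeq2, 11 with all lines of a gene summed and 192 with every distinct line as its own feature, an alternative chosen after seeing the data; leaving out 1 library gave 46 to 105. Slick against source oil (1146) gave 668 with DESeq2 and 866 to 1019 with 1 library left out. The difference between 96 and 48 hpf (58) gave 11 with lines summed and 32 to 76 with 1 library left out. Source oil at 48 hpf (106) gave 45 with DESeq2, 34 with lines summed and 26 to 101 with 1 library left out, and at 24 hpf (131) gave 59, 43 and 53 to 111. The causes were not tested. RLE scaling (94), no low-count filter (102), a mean of at least 50 counts (87), the 6 source and control libraries alone (114), 5 control samples kept apart (133), all 27 libraries (99) and the line nearest to the deposited mean (91) moved the 96 hpf count by less than 1.5 times. With 1 line or the sum of lines per gene, no named gene called at 96 hpf changed direction in any of these fits; among lines taken singly, those of MPO/EPX ran from -0.90 to 0.52 and those of RGR from -0.39 to 0.10. Of the 94 calls, 23 held in all 6 fits that left out 1 library, 47 were also DESeq2 calls and 11 held with lines summed, where the variation between libraries was 7.11% rather than 4.14%; the sign was the same for 94 of 94. Only 61 of the 94 had more than 1 distinct line, and summing left the counts of the others unchanged. The kept line was over 1.5-fold from the authors' deposited mean for 12 called genes. No paired analysis was possible because no pair of groups compared here within a stage (source and control at each stage, slick and source or control at 96 hpf) shares a replicate number. With 3 libraries a group, changes of scarce genes are the least certain: log2 changes below 0.5 were called only where counts were high enough for a standard error of 0.12 or less.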
